A study of Mus musculus with 24 samples.

Results

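The comparison described here sets mutant epidermis without Mad2 against control epidermis at postnatal day 3 (P3), the youngest age sampled and the only one of P3, P6, P13 and P20 at which the labels record no phenotype in the mutants. It used 6 of the 24 samples, chosen by their genotype label: P3 samples 1 and 2 (Mad2f/f; K14Cre+, called mutants 1 and 2) and P3 samples 4 to 7 (Cre-Neg, called controls 4 to 7). P3 sample 3 was left out because its genotype label is that of the mutants while its type label says Control. Mutants and controls at P6, P13 and P20, used below to follow the P3 differences, carry the same genotype labels, and there the mutants are labelled Nude. All mice had a mixed B6-129Sv background. K14Cre is Cre recombinase driven by the promoter of Krt14, a keratin gene of basal keratinocytes and of the outer root sheath, so cells of other lineages in the skin keep their floxed alleles. The label Cre-Neg does not say which Mad2 alleles the controls carried. Epidermis was peeled from the dermis after a night in cold trypsin, and its RNA was hybridized to Illumina bead arrays, on which each gene is read by 1 or more short probes. The labels do not say that each sample came from a separate animal, so the p-values may measure technical spread. That spread was pooled over all 24 arrays and their groups, which include 4 adult samples (Mad2f/f; K14Cre+, the same with p53f/+, and Mad2f/+; K14-Cre+) that enter no comparison here.

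Mad2, the product of Mad2l1, is a core component of the spindle assembly checkpoint, which holds a cell in mitosis until its chromosomes are attached to the spindle. Cells without the checkpoint can divide with the wrong number of chromosomes. In the first days after birth the hair follicle is in its first growth phase: matrix cells at its base divide fast and give rise to the hair shaft, built of hair keratins cross-linked by keratin-associated proteins (Krtaps), and to the inner root sheath that moulds it. The epidermis between follicles renews from a basal layer of keratinocytes. The tumour suppressor p53, encoded by Trp53, switches on genes of cell cycle arrest and cell death in damaged or wrongly divided cells.

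The values given below are normalized intensities on the log2 scale, a difference of 1 being a doubling, and differences are mutant minus control with their standard error (SE). A gene "rose" or "fell" where its p-value from limma, adjusted over all 14215 genes tested, was under 0.05. In all, 40 genes rose (0.281% of those tested) and 234 fell (1.65%), and 1125 had an unadjusted p under 0.05. The median difference over all genes was 0.03. Of all genes, 9.72% had both mutants below all 4 controls and 13.1% had both mutants above them. Between 26.9% and 30.7% of the 45281 probes were detected on a P3 array, and the upper quartile of intensity exceeded background by 48.7 to 67.9 units. Controls 4 and 5 and both mutants had the Y-linked transcript Ddx3y between 11.17 and 11.59, whereas controls 6 and 7 had Xist at 10.83 and 10.48, so the mutants were compared with controls of both sexes. Control 7 was on another chip than the other 5 arrays. Within the chip of those 5, 201 genes were called. In bulk tissue, fewer cells of a type and less RNA per cell cannot be told apart.

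The tissue label was checked against keratinocyte markers. All 7 tested of 8 keratinocyte genes were detected in every P3 group, and none changed. Krt14 was 15.53 and 15.59 in the mutants and 15.48, 15.48, 15.53 and 15.52 in the controls. Its signal reached 74.8% to 81.5% of the brightest signal on each array, so a change in so bright a gene could be compressed, and this was not tested. The same limit applies to other bright genes, among them Krt71, at up to 83.1% in the controls, and Krt33a, at up to 66.1%. Collagen genes of the dermis were dim, and 9 of 18 tested fibroblast markers were detected in no P3 array.

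Mad2l1, the targeted gene, was lower in the mutants. It measured 4.80 and 5.85 in the mutants and 7.09, 7.47, 7.99 and 7.90 in the controls, with no overlap. Its brightest probe, the one used, was not above background in either mutant. Against the dimmest detectable signal, Mad2l1 was therefore at least 2.63-fold lower (adjusted p = 0.00477). The fitted difference, -2.28, rests on background-level mutant signals and is no measure of size. The call ended without mutant 1 (-1.76), within the chip that held both groups (-2.19), against the 2 male-pattern controls alone (-1.95) and in the authors' own normalized values (-0.72). With the mean of its probes, Mad2l1 kept the call with a smaller difference, -1.20 (adjusted p = 0.0168). In the main fit Mad2l1 was the single gene called among 17 tested of 21 checkpoint and kinetochore genes, whose median difference was 0.12.

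Nearly all genes of the growing hair fibre were lower in the mutants. Across the lists of hair shaft keratins, Krtaps, other hair shaft genes and inner root sheath genes, 50 of 65 tested genes fell and none rose. For the 36 of these detected in both mutants the falls ranged from 4.25-fold to 35.8-fold. Both mutants lay below all 4 controls for 62 of the 65, against 9.72% of all genes. The hair programme was not silent in the mutants, since 43 of the 65 tested genes were still detected in both of them.

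Hair keratins, the filament proteins of the shaft, pair as type I and type II partners. Of 13 tested of 16 listed, 11 fell, with a median difference of -3.44, unchanged when the 3 genes undetected in both mutants were set to their bounds. Krt31, a type I keratin of the shaft's cortex, was 8.03 and 8.77 in the mutants and 13.07, 13.18, 12.87 and 12.39 in the controls. It was 22.2-fold lower (-4.47 ± 0.43, SE; adjusted p = 7.89e-06). Krt81, a type II hair keratin, was 9.79 and 11.04 in the mutants and between 13.83 and 14.59 in the controls. The Krt81 difference was -3.97 ± 0.69 (SE; adjusted p = 0.00313). Krt84, another type II hair keratin, was below detection in both mutants, at 5.42 and 6.00, while the controls stood at 10.34, 8.91, 9.85 and 9.73. It was at least 11.2-fold lower (adjusted p = 8.87e-05).

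Some members of this keratin list did not pass. Krt34 was 10.81 and 11.57 in the mutants and 14.16 to 14.95 in the controls, without overlap (-3.43 ± 0.87, SE; adjusted p = 0.0594). For Krt35, an early keratin of the lower shaft, the mutants at 9.17 and 7.33 overlapped the controls, which ran from 8.59 to 11.22 (-2.07 ± 0.60, SE; adjusted p = 0.122). Counts of hair keratins that fell stayed between 9 and 12 in all alternative settings except one. Counting the sample with conflicting labels as a mutant left 3. Without mutant 1 the calls for Krt81 (-3.35) and Krt33b (-3.87) ended.

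Krtaps, small proteins that cross-link the keratin filaments, held the largest single fall. Of 33 tested of 39 on the array, 28 fell, with a median of -3.51 (-3.31 with undetected genes at their bounds). Krtap19-4 was 6.49 and 5.46 in the mutants, detected in 1 of them, and 12.09, 13.66, 12.37 and 12.34 in the controls. The fitted difference was 99.5-fold (-6.64 ± 0.42, SE; adjusted p = 1.18e-07). Krtap6-2 was 7.66 and 8.47 in the mutants against 13.50, 14.01, 13.29 and 12.09 in the controls (-5.16 ± 0.61, SE; adjusted p = 6.25e-05). Krtap16-3 was 7.32 and 8.82 against 12.88, 13.71, 13.34 and 12.38 (-5.01 ± 0.77, SE; adjusted p = 0.00106).

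The 5 Krtaps that did not pass were Krtap16-1, Krtap19-1, Krtap19-3, Krtap19-5 and Krtap31-1. Krtap31-1 was detected in no P3 array, and Krtap16-1 in 1 control. Krtap19-1 was undetected in both mutants and spread from 4.69 to 11.13 over the controls, so its difference of -3.12 did not exceed the spread (adjusted p = 0.815). Krtap sequences are much alike, and cross-hybridization between members was not tested. Between 24 and 28 Krtaps fell in the alternative settings, and 12 with the conflicting sample counted as a mutant.

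Among the other proteins of the shaft, 7 of 8 tested of 10 genes fell (median -3.46, or -3.30 with undetected genes at their bounds). S100a3, a calcium-binding protein of the hair cuticle, was 11.57 and 11.03 in the mutants and 15.08, 15.06, 14.37 and 14.35 in the controls (-3.41 ± 0.47, SE; adjusted p = 0.000366). Vsig8 was 9.60 and 9.46 against 14.16, 14.23, 13.91 and 13.29 (-4.37 ± 0.56, SE; adjusted p = 0.00016). Crym, which encodes a thyroid hormone-binding protein, was 8.48 and 6.64 against 12.61, 11.53, 11.80 and 11.45 (-4.29 ± 0.43, SE; adjusted p = 1.34e-05). Mutant 2 was the lower of the pair for Crym, and both were below every control. Padi3, which converts arginine to citrulline in hair proteins, was at background in both mutants (4.77 and 4.61) and between 7.72 and 8.94 in the controls. That made it at least 3.94-fold lower (adjusted p = 0.0181). The Padi3 call ended without mutant 1 (-3.59), without mutant 2 (-3.43) and without control 4 (-3.26). Without mutant 1, mutant 2 or control 4, 4 of the 8 shaft genes fell, and 1 with the conflicting sample counted as a mutant; over the other settings the count was 4 to 8.

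The inner root sheath and companion layer list held 13 genes, of which 11 were tested and 4 fell. All 11 were below every control in both mutants, with a median of -2.79. Krt72, a type II keratin of the sheath, was 8.30 and 7.90 in the mutants and 11.50 to 12.24 in the controls (-3.75 ± 0.29, SE; adjusted p = 7.29e-07). Krt26, a type I partner, was 9.20 and 7.93 against 12.78, 12.60, 12.68 and 12.44 (-4.06 ± 0.42, SE; adjusted p = 1.47e-05). Tchhl1, a trichohyalin-like gene, was 7.13 and 7.10 against 11.83, 10.36, 12.14 and 11.97 (-4.46 ± 0.65, SE; adjusted p = 0.000591). Sheath keratins with wider spread missed the threshold: Krt71 (-3.06 ± 0.76, SE; adjusted p = 0.0518), Krt27 (-2.79 ± 0.86, SE; adjusted p = 0.177) and Krt73 (-2.26 ± 0.72, SE; adjusted p = 0.207). Krt28 fell (-3.08 ± 0.63, SE; adjusted p = 0.0132), but not without mutant 2 (-2.35).

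The 2 mutants were not alike in the sheath. Mutant 2 was below mutant 1 for 10 of 11 tested sheath genes, by a median of -0.86. For the 54 shaft genes mutant 2 was lower for 29 and higher for 25, with a median gap of -0.10. The number of sheath genes that fell varied with the processing from 3 to 10, with a median difference between -3.51 and -2.06, apart from the setting that counts the conflicting sample as a mutant (2 fell).

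**Figure D1:**
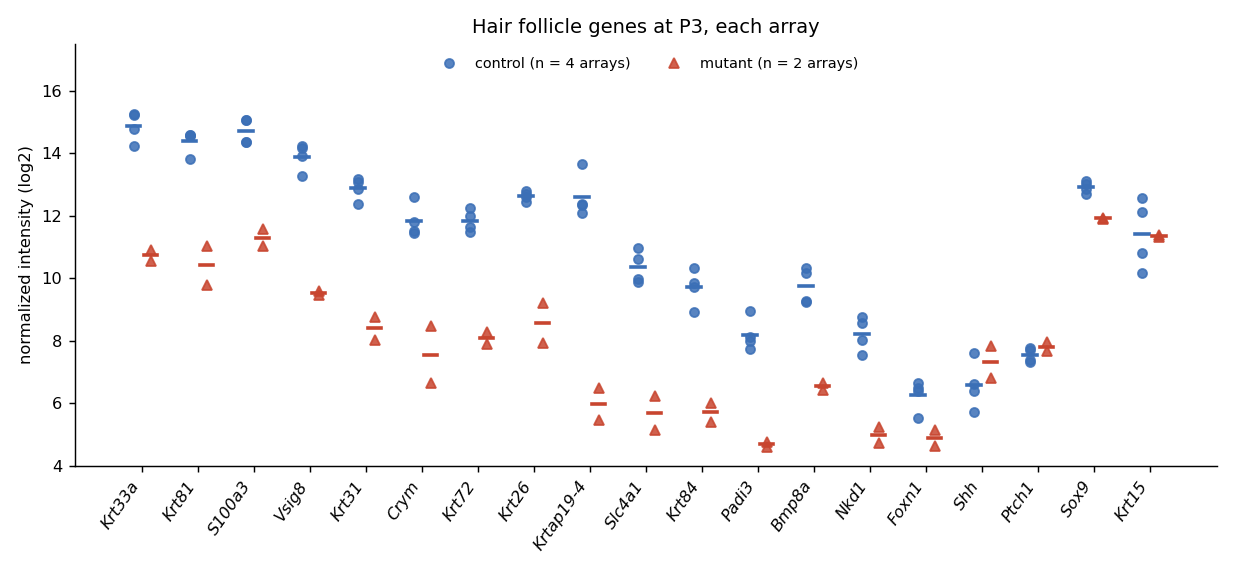
Normalized log2 intensity of hair follicle genes on each P3 array, with blue circles for the 4 controls, red triangles for the 2 mutants and bars for group means. From Krt33a to Foxn1 the mutants lie below every control, Sox9 likewise, and for Shh, Ptch1 and Krt15 the groups overlap.

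Within the genomic clusters of keratin genes, the genes that fell were those of the hair. Hair keratins and Krtaps sit in dense clusters together with keratins of the interfollicular epidermis. In the type I cluster on chromosome 11, between Krt222 and Krt42 in the RefSeq order, 17 of 22 tested hair genes fell (median -3.11). Of 9 other keratins interspersed in the same cluster none fell and Krt16 rose (median -0.06), and none of 16 tested flanking genes was called. In the type II cluster on chromosome 15, from Krt80 to Krt18, 6 of 9 hair genes fell (median -3.44), against none of 13 other keratins (median 0.00) and none of 14 flanking genes. In the Krtap clusters elsewhere, 9 of 12 genes fell between Krtap24-1 and Krtap20-2 on chromosome 16, all 3 between Krtap21-1 and Krtap11-1, and all 4 Krtap5 genes on chromosome 7. None of the 7, 7 and 10 tested flanking genes of these clusters was called.

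**Figure D2:**
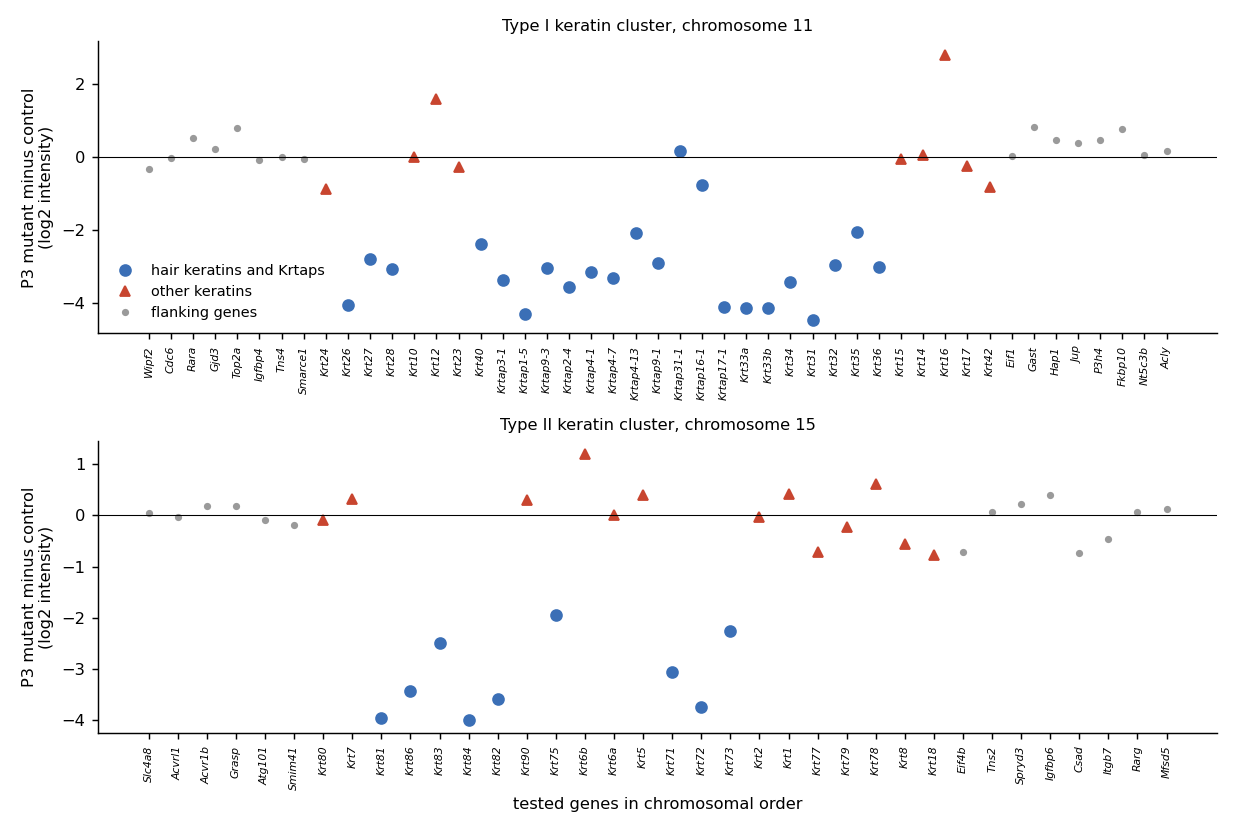
P3 difference (mutant minus control, log2 intensity) of each tested gene in chromosomal order across the type I cluster on chromosome 11 and the type II cluster on chromosome 15. Hair keratins and Krtaps (blue circles) lie mostly between -2 and -4, other keratins (red triangles) and flanking genes (grey) scatter around 0, and Krt16 stands at 2.81.

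Promoters of hair genes are shown because many carry a TATA box close to their start. Sequences are from RefSeq (GRCm38.p6) and reach 150 bases upstream of the first listed start, which follows the last base printed. Capitals mark the 6-letter match TATAAA on either strand and the Lef1/Tcf-type motif, CTTTGAA or CTTTGAT. Of the 14215 genes tested, 9318 had a promoter in the table.
Krt31 (chr11:100050552-100050701, - strand): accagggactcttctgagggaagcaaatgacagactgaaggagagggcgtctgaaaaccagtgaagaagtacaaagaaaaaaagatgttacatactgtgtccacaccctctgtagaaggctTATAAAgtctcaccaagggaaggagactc
Krt26 (chr11:99337966-99338115, - strand): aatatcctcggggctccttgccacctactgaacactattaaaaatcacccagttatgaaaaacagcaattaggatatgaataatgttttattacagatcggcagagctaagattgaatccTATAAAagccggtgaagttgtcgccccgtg
Krtap6-2 (chr16:89420112-89420261, - strand): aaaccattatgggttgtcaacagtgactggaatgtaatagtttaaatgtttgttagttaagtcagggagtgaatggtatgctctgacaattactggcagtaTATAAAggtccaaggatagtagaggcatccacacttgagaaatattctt
Krtap16-3 (chr16:88962874-88963023, - strand): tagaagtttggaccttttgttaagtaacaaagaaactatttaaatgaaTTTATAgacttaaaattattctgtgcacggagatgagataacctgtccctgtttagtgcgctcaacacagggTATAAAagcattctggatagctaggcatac
Krtap6-5 (chr16:89047900-89048049, - strand): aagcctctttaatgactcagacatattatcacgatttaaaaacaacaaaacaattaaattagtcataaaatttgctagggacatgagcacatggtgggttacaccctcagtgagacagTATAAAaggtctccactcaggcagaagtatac
Krt34 (chr11:100041555-100041704, - strand): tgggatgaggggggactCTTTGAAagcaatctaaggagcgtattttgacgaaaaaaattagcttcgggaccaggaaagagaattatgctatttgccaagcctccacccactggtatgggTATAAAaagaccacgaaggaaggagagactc

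TATAAA lies 29 bases before the start in Krt31 and 30 bases before it in Krt26 and Krtap16-3. In Krtap6-5 it lies 32 bases before the start. Krtap6-2 has it at 49 bases, outside the usual window of 22 to 35 bases, and Krtap16-3 has a further match on the other strand. Krt34, which missed the threshold, has both a CTTTGAA match 133 bases before its start and a TATAAA match at 31 bases. Krt31 and Krtap16-3 each have 1 Lef1/Tcf-type match too, in the wider window searched below but outside the printed bases. Printed matches included, that window holds 2 TATAAA matches for Krt26, 3 for Krtap6-5 and 2 Lef1/Tcf-type matches for Krt34. Windows from 250 bases before to 50 after the start held TATAAA in 79.3% of 29 Krtaps and 75% of 8 hair shaft keratins. It was in 60% of 10 sheath genes and 50% of 6 other hair shaft genes. The shares were 14.2% of 27025 promoters and 8.77% of the 9318 promoters of tested genes. Placed 22 to 35 bases before the start on the gene's strand, TATAAA was found in 51.7% of Krtaps and 50% of hair keratins. There it was in 30% of sheath genes and 33.3% of other hair shaft genes, against 2.05% of all promoters and 2.04% of those of tested genes. Of the 156 promoters of genes that fell, 25.6% held TATAAA, as did 25% of 28 promoters of genes that rose. The 156 include promoters of hair keratins and Krtaps counted above. The Lef1/Tcf-type motif was in 4 of 8 hair keratins, 20.7% of Krtaps, 1 of 10 sheath genes and 0 of 6 other hair shaft genes. Its share was 8.77% of all promoters, 6.31% of those of tested genes and 9.62% of those of genes that fell. These are matches of letters and describe the genes, not their control.

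Few regulators of the hair lineage passed the test. Of 20 tested of 21 transcription factors of the hair lineage, 2 fell, none rose and the median was -0.69. Foxn1, whose loss causes hairlessness in the classical nude mouse, was 5.13 and 4.62 in the mutants and 6.49, 6.39, 6.66 and 5.53 in the controls. Both mutants were below detection, and the bound was no more than at least 1.03-fold lower (adjusted p = 0.0152). Cux1, a factor of the inner root sheath, was 8.40 and 8.01 against 10.21, 9.89, 9.01 and 9.26 (-1.39 ± 0.34, SE; adjusted p = 0.0495). Hoxc13, which activates hair keratin genes, was 6.80 and 6.16 against 8.37, 8.30, 7.50 and 7.51, below every control without passing (-1.44 ± 0.51, SE; adjusted p = 0.306). Lef1, the Wnt effector of the matrix, was near background in all but control 4, and its difference was -0.13. Foxn1 lost its call without mutant 2 (-1.13) and without control 4 (-1.31), and Cux1 without mutant 1 (-1.58), mutant 2 (-1.20), control 4 (-1.18) or control 5 (-1.29). Processing ended both calls too. Foxn1 was not called without background correction (-0.56), in the authors' values (-0.33) or with P3 arrays alone (-0.85). Cux1 was not called with the mean of its probes (-0.77), in the authors' values (-0.94), with P3 arrays alone (-1.45) or unfiltered (-1.39). Counting sample 3 as a control ended the Foxn1 call (-1.09), and as a mutant the Cux1 call (-0.92). Over the alternatives, 0 to 7 of the hair lineage factors fell.

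Single genes of the follicle's signalling pathways fell. Nkd1, a feedback inhibitor of Wnt signalling, was 4.74 and 5.23 in the mutants, not above background, and 8.77, 8.58, 8.04 and 7.55 in the controls. It was at least 4.04-fold lower (adjusted p = 9.66e-06), one of 9 named genes whose call held in all 23 alternative settings. Its paralogue Nkd2 was 7.78 and 6.79 against 10.66, 9.78, 8.19 and 9.58 (-2.27 ± 0.47, SE; adjusted p = 0.0148), and lost the call without mutant 2 (-1.77). These were the 2 genes called of 17 tested Wnt pathway genes (median -0.17), and the Wnt target Axin2 differed by -0.13. Over the alternatives 1 to 4 Wnt genes fell.

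Bmp8a, a ligand of the Bmp family, was 6.64 and 6.44 in the mutants and 10.33, 10.16, 9.28 and 9.25 in the controls, 9.30-fold lower (-3.22 ± 0.28, SE; adjusted p = 3.06e-06). It was the one gene called of 10 tested Bmp pathway genes (median -0.61). All 10 had a negative difference, as had 6446 of all 14215 genes. Hedgehog genes did not fall at P3. Shh, the ligand made by matrix cells, was 7.83 and 6.82 in the mutants and 6.62, 7.60, 6.38 and 5.73 in the controls, an overlapping spread (0.74 ± 0.48, SE; adjusted p = 0.938). None of 8 tested Hedgehog genes was called, and their median was 0.38. Notch (10 tested) and Eda (4 tested) pathway genes had no call either.

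Slc4a1, an anion exchanger best known from red blood cells, was among the 10 largest falls: 6.24 and 5.15 in the mutants, detected in 1 of them, and 10.97, 10.63, 9.98 and 9.90 in the controls (-4.68 ± 0.55, SE; adjusted p = 5.45e-05). The blood gene Hba-a1, a haemoglobin chain, differed by -0.01 ± 0.98 (SE). Its level was 8.57 and 9.77 in the mutants and 8.68 to 9.42 in the controls. Genes named by number or as predicted transcripts were also among the largest falls, led by 1110025L11Rik, at least 26.9-fold lower (adjusted p = 2.43e-05).

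Other appendages and the stem cell compartment showed few calls. Mc5r, a melanocortin receptor of the sebaceous gland, was at background in the mutants (4.95 and 4.96) and 7.95, 8.01, 6.86 and 6.70 in the controls. It was at least 2.23-fold lower (adjusted p = 0.000572) and the one gene called of 9 tested sebaceous genes (median -1.02). Sox9, a factor of the outer root sheath and of follicle stem cells, was 11.90 and 11.94 against 13.01, 13.10, 12.70 and 12.85 (a difference of -1 ± 0.25, SE; adjusted p = 0.0495). The Sox9 call ended without any one of the P3 samples, with differences from -1.07 to -0.94. Krt15, a keratin of the stem cell region, did not differ beyond the spread of the controls: the mutants stood at 11.39 and 11.32, inside a control range of 10.18 to 12.56 (-0.06 ± 0.70, SE). Of 12 tested stem cell genes, Sox9 alone was called.

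The layers of the interfollicular epidermis showed no call. None of 14 tested basal genes (median 0.38), 26 spinous and granular genes (median 0.04) or 22 lipid barrier genes (median 0.05) passed the test. Krt5, a keratin of basal cells, was 12.37 and 14.33 in the mutants and 12.42, 12.47, 13.51 and 13.41 in the controls (0.40 ± 0.72, SE). Krt1, a keratin of spinous cells, was 15.05 and 14.88 against 14.26, 14.63, 14.47 and 14.83, above every control without passing (0.42 ± 0.37, SE). Krt10, its partner, read about 15.6 on all 6 arrays at 84.6% to 88% of the brightest signal, where a difference could be compressed.

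**Figure D3:**
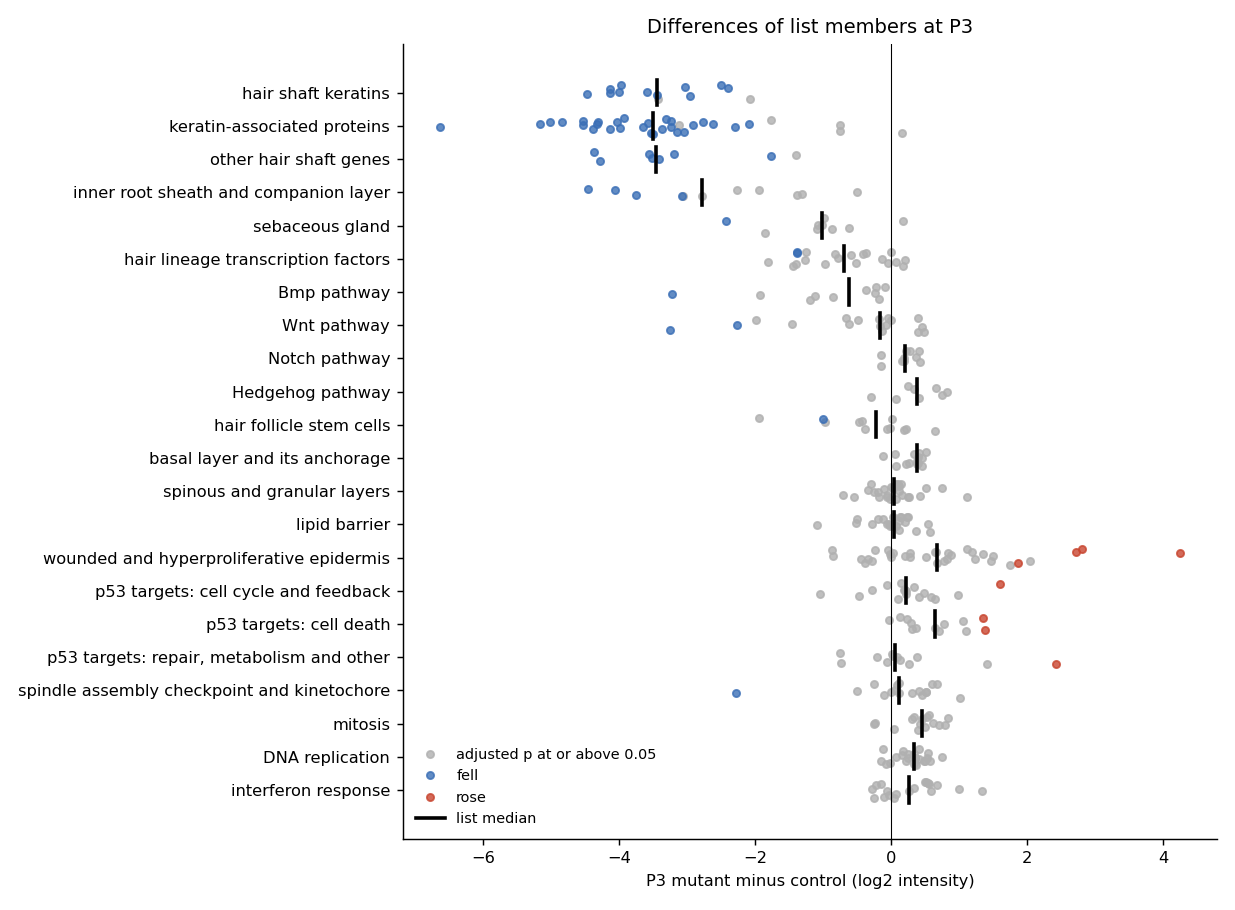
P3 difference (mutant minus control, log2 intensity) of every tested gene of the main lists, with blue points for genes that fell, red for genes that rose, grey for the others and a black bar for the list median. The hair fibre lists centre between -3.51 and -2.79, whereas the layers of the interfollicular epidermis centre near 0.

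A few genes of wounded epidermis rose. Of 34 tested of 36 such genes, 4 rose and none fell (median 0.67), and 16 of the 34 had both mutants above all controls, against 13.1% of all genes. Krt16, a keratin of activated keratinocytes, was 13.47 and 14.36 in the mutants and 10.55, 12.02, 10.27 and 11.58 in the controls (2.81 ± 0.48, SE; adjusted p = 0.00248). Sprr2d, a small protein of the cornified envelope, was 11.11 and 11.68 against 8.50, 9.55, 7.66 and 8.97 (2.72 ± 0.62, SE; adjusted p = 0.0298). Serpinb3c, a protease inhibitor, was 10.47 and 10.90 against 5.75, 7.17, 6.07 and 6.74, 19.1-fold higher (4.26 ± 0.52, SE; adjusted p = 8.66e-05). Its neighbour in the family, Serpinb3d, was detected in the mutants alone and was at least 1.91-fold higher (adjusted p = 0.0415).

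Not every gene of wounded epidermis moved. The alarmin S100a8 was 8.65 and 9.24 in the mutants, below the controls at 9.44 to 10.52 (-0.87 ± 0.81, SE; adjusted p = 1.00). Krt17, which marks both activated keratinocytes and follicles, differed by -0.23 ± 0.18 (SE; adjusted p = 1.00). Its signal was 52.4% to 62% of the brightest in the mutants and 64.3% to 78.4% in the controls. At such levels its difference could be compressed. The calls of Krt16 (2.37) and Sprr2d (2.44) ended without mutant 2, and that of Sprr2d also without mutant 1 (3.01), control 4 (2.67) or control 6 (2.39). Serpinb3d lost its call without any one of the P3 samples (1.73 to 1.97), whereas Serpinb3c held in all 23 settings. Between 1 and 9 wound genes rose across the alternatives.

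Targets of p53 rose in part. Of 17 tested genes of cell cycle and feedback 1 rose (median 0.22), of 13 tested cell death genes 2 rose (median 0.65) and of 12 other targets 1 rose (median 0.06). None fell. Ccng1, cyclin G1, was 10.23 and 10.36 in the mutants and 8.58, 8.50, 8.73 and 8.93 in the controls (1.61 ± 0.28, SE; adjusted p = 0.00313). Ddit4l, a relative of the stress gene Ddit4, was 7.52 and 7.77 in the mutants and not above background in any control, which made it at least 2.76-fold higher (adjusted p = 0.000591). Bbc3, the pro-apoptotic protein Puma, was 7.41 and 8.67 against 6.49, 6.32, 6.95 and 6.84 (1.39 ± 0.33, SE; adjusted p = 0.0399). Apaf1, the scaffold of the apoptosome, was 8.16 and 8.78 against 6.95, 6.76, 7.43 and 7.29 (1.36 ± 0.34, SE; adjusted p = 0.0495).

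The best known p53 targets did not pass. Cdkn1a, the cell cycle inhibitor p21, was 13.17 and 13.33 in the mutants and 13.01, 12.95, 12.81 and 12.91 in the controls, above every control by 0.33 ± 0.20 (SE; adjusted p = 0.866). Mdm2, which degrades p53, was 11.40 and 11.41 against 10.86 to 10.98 (0.49 ± 0.25, SE; adjusted p = 0.719). The transcript of p53 itself, Trp53, was 8.65 and 9.26, inside the control range of 8.35 to 9.60 (0.20 ± 0.54, SE). Bbc3 (0.76) and Apaf1 (1.05) lost their calls without mutant 2, both in the authors' normalized values (0.62 and 0.67), and Bbc3 with the mean of its probes (0.45). Leaving out control 4, 5 or 7 ended both calls too (1.28 to 1.45 for Bbc3, 1.24 to 1.42 for Apaf1), leaving out mutant 1 ended that of Apaf1 (1.67), and Ccng1 did not pass without mutant 2 (1.54). Over the alternatives, 0 to 3 cell death targets rose.

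Promoters of Ccng1 and Ddit4l are printed because both hold a match to the p53 half-site in this window, marked in capitals. They come from RefSeq (GRCm38.p6) and reach 250 bases upstream of the first listed start.
Ccng1 (chr11:40755287-40755536, - strand): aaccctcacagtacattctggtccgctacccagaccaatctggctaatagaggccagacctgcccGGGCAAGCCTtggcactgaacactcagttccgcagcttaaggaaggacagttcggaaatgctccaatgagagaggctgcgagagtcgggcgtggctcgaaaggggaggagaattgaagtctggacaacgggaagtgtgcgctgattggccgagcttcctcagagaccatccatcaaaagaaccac
Ddit4l (chr3:137623422-137623671, + strand): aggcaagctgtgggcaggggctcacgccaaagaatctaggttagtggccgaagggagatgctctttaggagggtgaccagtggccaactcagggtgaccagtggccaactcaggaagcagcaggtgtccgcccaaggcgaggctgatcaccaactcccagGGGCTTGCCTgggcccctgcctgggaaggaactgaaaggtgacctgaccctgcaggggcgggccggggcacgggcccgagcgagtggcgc

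The match starts 185 bases before the start of Ccng1 and 90 bases before that of Ddit4l. A half-site was in 7 of 16 promoters of cell cycle and feedback targets and in 3 of 8 of cell death targets. It was in 2 of 9 promoters of the other p53 targets, the list that holds Ddit4l. Among promoters of genes that rose at P3, 6 of 28 held a half-site. The shares were 8.37% of all promoters, 6.85% of those of tested genes and 7.69% of those of genes that fell. Bbc3 and Apaf1 had none in the window searched, which says nothing about sites elsewhere.

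The mitosis list (15 tested, median 0.46) and the DNA replication list (23 tested, median 0.34) held no call. Ccnb1, mitotic cyclin B1, was 7.74 and 8.41 in the mutants and 7.14 to 7.77 in the controls (0.61 ± 0.40, SE; adjusted p = 0.939). Bub1b, another checkpoint gene, was 7.63 and 8.81 against 7.47 to 8.14 (0.46 ± 0.61, SE). Interferon (19 tested), heat shock (16), unfolded protein (16) and cytokine (14) lists held no call. Among 11 tested antioxidant genes, Slc7a11, the cystine transporter, rose: 8.32 and 8.63 against 6.08, 6.99, 5.40 and 5.78 (2.41 ± 0.37, SE; adjusted p = 0.000901).

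Genes outside the lists rose as well, among them Fetub, Serpine2 and Scarf2 of the 10 largest rises. Fetub, a fetuin that inhibits proteases, was 8.86 and 9.27 in the mutants and near background in the controls, at least 7.41-fold higher (adjusted p = 3.26e-06). Its relative Ahsg rose too, at least 1.58-fold (adjusted p = 0.000572). Serpine2, a serine protease inhibitor, was 8.72 and 9.43 against 5.69, 6.33, 5.64 and 6.26 (3.09 ± 0.47, SE; adjusted p = 0.000888). Scarf2, a scavenger receptor family gene, was 6.99 and 7.80 in the mutants and below background in all controls, at least 2.32-fold higher (adjusted p = 2.52e-05). Xlr4a, an X-linked gene with a smaller rise, was 9.85 and 9.80 against 8.56, 8.18, 7.11 and 7.12 (2.08 ± 0.45, SE; adjusted p = 0.0201). The 2 male-pattern controls had the higher Xlr4a levels, and against them alone the difference was 1.45 and not called; the call also ended without either mutant (2.05 and 2.11) and without control 6 or 7 (1.87 each).

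Genes of other cell types moved with some of these rises. C1qb, a complement gene of macrophages, was 8.18 and 7.74 in the mutants and 4.85, 6.57, 4.55 and 4.78 in the controls (2.77 ± 0.64, SE; adjusted p = 0.033). The summed normalized intensity of 12 tested myeloid markers was 1465 and 1333 in the mutants and 676 to 895 in the controls, while the myeloid markers C1qa, Tyrobp, Lyz2, Mrc1 and Adgre1 were detected in no P3 array. Fcrls, known from microglia and macrophages, was detected in the mutants alone and was at least 2.07-fold higher (adjusted p = 0.00601). Cx3cr1, a chemokine receptor of myeloid cells, rose as well, detected in 1 mutant and in no control (adjusted p = 0.0352). The C1qb call ended without either mutant (2.55 and 2.99), without control 4, 6 or 7 (2.56 to 2.66) and against the male-pattern controls (2.25), and that of Fcrls without mutant 1 (1.95).

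None of 18 tested fibroblast markers was called, but 2 other genes of the connective tissue matrix rose. Col4a1, a basement membrane collagen, was 8.80 and 8.65 against 6.67, 7.11, 7.77 and 7.58 (1.44 ± 0.34, SE; adjusted p = 0.0377), and the matrix protein Fbln2 rose by 1.54 ± 0.37 (SE; adjusted p = 0.0446). Summed over 18 tested fibroblast markers, the intensity was 1972 and 3916 in the mutants against 1129 to 1776 in the controls. Of these markers 17 of 18 had a positive difference (median 0.56), as had 7769 of all 14215 genes. Both mutants lay above all controls for 5 of the 18, against 13.1% of all genes. As stated above, 9 of the 18 were detected in no P3 array. Col4a1 and Fbln2 lost their calls without either mutant (1.37 and 1.52, 1.56 and 1.51) and without control 4 or 5 (1.24 and 1.39, 1.37 and 1.38), and Fbln2 also without control 7 (1.58). The part of these other cells in the rises was not tested.

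Within the chip that held both mutants and controls 4 to 6, 17 named genes were no longer called. They were Krt28 (-3.07), Cux1 (-1.5), Nkd2 (-2.26), Nrg1 (-2.71), Sox9 (-1.02), Krt16 (2.97), Sprr2d (2.83), LOC100042514 (2.69), Apaf1 (1.42), Bbc3 (1.45), Slc7a11 (2.32), C1qb (2.63), Fcrls (2.47), Col4a1 (1.54), Fbln2 (1.58), Xlr4a (1.87) and Mad2l1 (-2.19). All kept their direction, and 12 of 13 hair keratins and 28 of 33 Krtaps fell there. Leaving out control 7 alone compares the same mutants and controls. Both settings gave the same differences for C1qb (2.63), Sox9 (-1.02) and Xlr4a (1.87). Leaving out control 7 ended 7 named calls, and Krt16, Slc7a11 and Mad2l1 kept theirs. The settings differ in the arrays that gave the spread. A call lost within the chip therefore does not by itself show dependence on the chip.

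**Figure D4:**
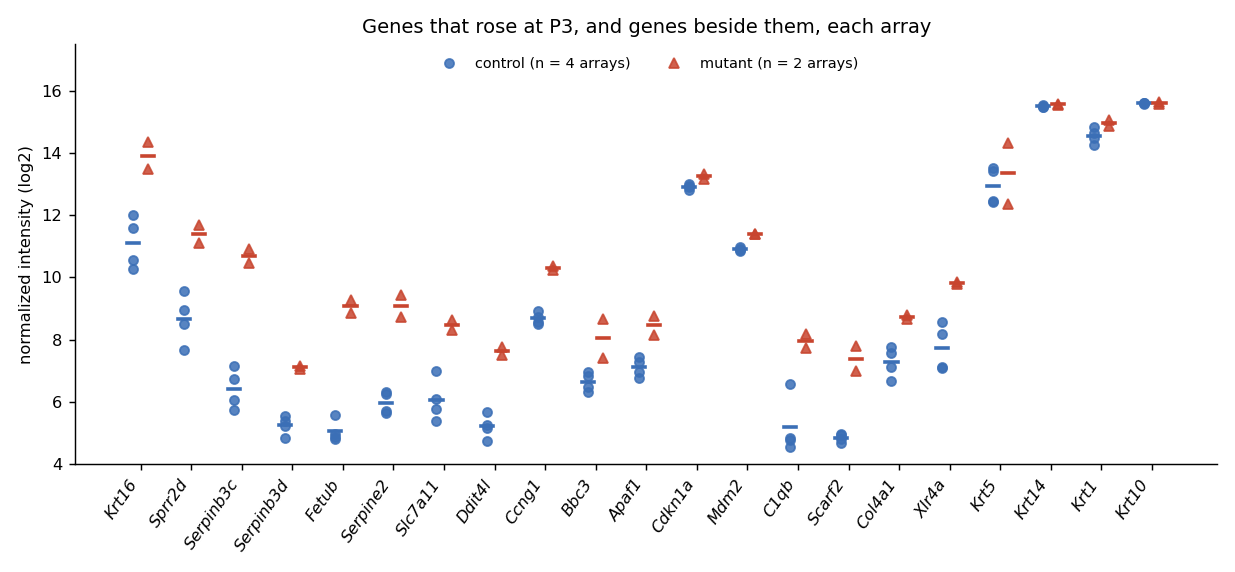
Normalized log2 intensity on each P3 array for genes that rose and for genes shown beside them, with blue circles for the 4 controls, red triangles for the 2 mutants and bars for group means. Krt16 to Xlr4a lie above every control in both mutants; Cdkn1a and Mdm2 do so by 0.33 and 0.49, and Krt5, Krt14 and Krt10 overlap the controls.

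The P3 differences were followed into P6, P13 and P20, in other samples (2 mutants at each age, and 2, 2 and 3 controls). At P6, 9.5% of genes rose and 13.2% fell. At P13 these shares were 9.99% and 10.6%, and at P20 they were 4.41% and 5.67%. Of the 234 genes that fell at P3, 144 fell at P6 (61.5%, and 7.65% of the P6 falls), 187 at P13 (79.9%, and 12.5% of the P13 falls) and 39 at P20 (16.7%, and 4.84% of the P20 falls). Of the 40 that rose, 18 rose at P6 (45%, and 1.33% of the P6 rises), 14 at P13 (35%, and 0.986%) and 14 at P20 (35%, and 2.23%). A test of the P3 difference against the mean of the later 3 passed for 917 genes (6.45%).

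Falls of hair genes had different courses. The median over the 65 hair genes was -3.41 at P3, -1.90 at P6, -6.33 at P13 and -0.60 at P20. Krt31 differed by -4.47 at P3, -3.78 at P6, -8.62 at P13 and -0.34 at P20. Levels at the later ages are not given here, so a small difference at P20 does not say that mutant levels rose. P20 mutant 2 and P20 controls 4 and 5 were on another chip than the other P20 arrays. Their minimum signals were -38.3, -38.2 and -33.1. For 57 of the 234 falls the P3 difference lay below the later mean past the test, and for none above it. The 234 were chosen by their low P3 difference, so the choice itself favoured this direction. Psors1c2, a hair shaft gene, was -3.56 at P3 and 4.32 at P20, and its P3-minus-later difference was -3.76 ± 0.67 (SE; adjusted p = 0.0036). Krtap19-4 (-2.95, adjusted p = 0.0023) and Krt84 (-2.49, adjusted p = 0.0178) also had P3 differences below the mean of the later 3. At P13 itself the list medians, -5.82 for Krtaps and -7.92 for hair keratins, were below those at P3.

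A few falls were seen at P3 and at no later age: 25 genes, of which 15 also passed the test of the difference. The 25 were chosen by the values that this test compares, so the count of 15 is no separate evidence. Atp12a, a proton pump subunit, was 7.98 and 7.18 in the mutants and 12.10, 10.64, 10.89 and 10.77 in the controls at P3 (-3.52 ± 0.67, SE; adjusted p = 0.00721). Its later differences were -0.18, -0.92 and 1.71, and P3 minus later was -3.72 ± 0.80 (SE; adjusted p = 0.0105). Nrg1, a ligand of the ErbB receptors, was at background in the P3 mutants and at least 3.27-fold lower (adjusted p = 0.03), but rose at P13 (1.99). P2rx5, a receptor for ATP detected in 1 mutant, was 5.34 and 6.76 against 9.30, 9.42, 8.96 and 8.67 at P3 (-3.03 ± 0.48, SE; adjusted p = 0.00117) and within 0.29 of 0 at each later age. Fxyd4, a regulator of ion pumps, fell at P3 (-1.65 ± 0.32, SE; adjusted p = 0.00924) and rose at P20 (3.68). Atp12a lost its P3 call without mutant 2 (-3.12), and Nrg1 without either mutant (-3.09 and -2.02) or without control 4 or 5 (-2.39 and -2.46).

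Hedgehog genes and Krt15 were not called at P3 and fell at some later ages. Shh, 0.74 at P3, was -3.42 at P6, -4.46 at P13 and -0.35 at P20, where it did not pass the test, and P3 minus later was 3.49 ± 0.57 (SE; adjusted p = 0.00191). For Ptch1, the receptor and target of the pathway, the differences were 0.26 at P3 and -1.59, -3.03 and -1.71 later (adjusted p = 0.00389 for the difference). Of 8 tested Hedgehog genes, none fell at P3, 7 at P6, 3 at P13 and 1 at P20, and 3 passed the test of P3 against later. Krt15 went from -0.06 at P3 to -3.50, -3.45 and -6.70, a P3-minus-later difference of 4.49 ± 0.84 (SE; adjusted p = 0.0044). Of 15 tested mitosis genes none fell at P3, 9 at P6, 2 at P13 and none at P20, and 3 passed that test. Of 18 tested fibroblast markers 18 fell at P6, 2 at P13 and 2 at P20.

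More barrier and wound genes passed the test at the later ages. Of 34 wound genes 4 rose at P3, 27 at P6, 25 at P13 and 24 at P20. For 22 the P3 difference lay below the later mean past the test. Sprr2d differed by 2.72 at P3 and by 8.51, 9.20 and 7.91 later (P3 minus later -5.82 ± 0.74, SE; adjusted p = 0.000325). Of 26 spinous and granular genes none rose at P3, 15 at P6, 16 at P13 and 9 at P20. Krt1 went from 0.42 to 3.14, 4.14 and 3.00. Of 22 lipid barrier genes none rose at P3, 16 at P6, 15 at P13 and 3 at P20. Of 19 interferon genes none rose at P3, 10 at P6, 10 at P13 and 5 at P20.

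Among the p53 targets, Ddit4l was higher at P3 alone: its later differences were 0.56, -0.78 and 0.34, and P3 minus later was 2.39 ± 0.42 (SE; adjusted p = 0.00319). Ccng1 rose at P3 (1.61) and P6 (1.65) but not at P13 (0.24) or P20 (0.62), and its test of the difference did not pass (adjusted p = 0.196). Bbc3 differed by 0.02, 0.36 and -0.26 later (adjusted p = 0.0532 for the difference). Of the 17 rises seen at no later age, 14 passed the test of the difference, among them Scarf2, Col4a1, Fbln2 and Fcrls. These 17 too were chosen by the values that the test compares. Scarf2 was -6.63 and Col4a1 -6.60 at P6, the age at which the fibroblast markers fell. Genes higher at all 4 ages numbered 9, among them Fetub, Krt16, Sprr2d and Irx3, a homeobox gene (0.96 ± 0.24 at P3, SE; adjusted p = 0.0466). The 28 genes lower at all 4 ages included Mad2l1, Krt33a, S100a3, Sox9, Cux1, Nkd2, the lipid carrier Apoe (-1.83 ± 0.29, SE; adjusted p = 0.00133) and the chemokine Cxcl12, at least 2.97-fold lower at P3 (adjusted p = 0.000542).

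**Figure D5:**
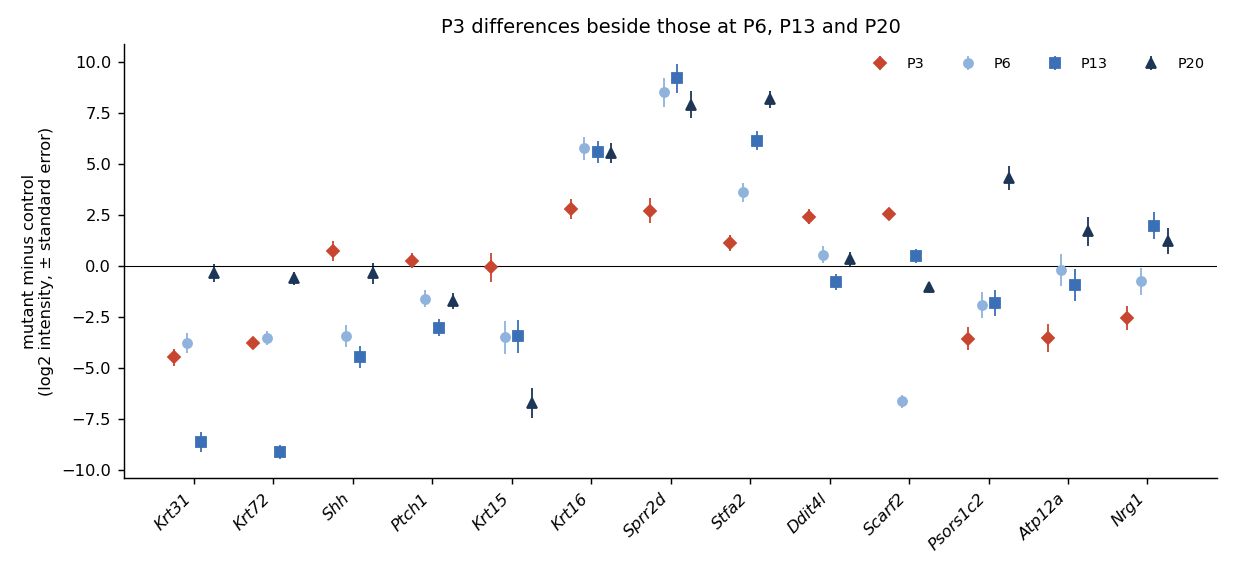
Differences (mutant minus control, log2 intensity, bars for 1 SE) at P3 (red diamonds), P6, P13 and P20 (blue symbols) for genes whose course differs. Krt31 is low at P3, P6 and P13, Ptch1 and Krt15 are near 0 at P3 and negative at each later age, Shh is negative at P6 and P13 but not at P3 or, beyond its error, at P20, Sprr2d is higher later, and Psors1c2, Atp12a and Nrg1 are lowest at P3.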

How the data were processed

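Per the file headers, each array has 1 deposited column of mean bead intensity per probe, not normalized, and a detection column. The deposited detection columns held the p-value in some arrays and the fraction 1 minus it in others, and were put on 1 scale. A second deposited table gives the authors' normalized log2 values. The submitters' processing notes name limma for it. Of the per-sample columns, 1 (bead numbers of an adult sample) was not used. The genome build is not given in the sources used here.

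Intensities were background-corrected (normal-exponential model from the detection p-values, offset 16), quantile-normalized and log2-transformed with limma 3.58.1 in R 4.3.3. Probes entered if detected (p under 0.01) in 2 or more arrays, and each gene took its brightest probe. A model with 1 mean per group was fitted over the 24 arrays (residual degrees of freedom 12, prior 3.89), so the spread is pooled over ages. It gave the contrasts at each age and P3 minus the mean of P6, P13 and P20, with Benjamini-Hochberg adjustment over the genes tested at 0.05, and was tested on simulated data. Precision is limited by how many arrays each group has. A gene undetected in all arrays of a group is given as "at least N-fold", the bright group's mean against the higher of its own signal and the lowest detected signal of each dim array.

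Members and lists were chosen with earlier results of these data known. Named were Mad2l1 and Trp53; the 10 largest rises and falls without overlap; up to 5 called members per list (all in the p53, signal and transcription factor lists); 12 genes whatever their result; the 5 largest differences from later ages in each direction; and the brightest marker of each other cell type. Other genes were named after their values were seen. Alternatives varied background, normalization, offset, filter, probe choice, chip, sample sets, sample 3, weights, moderation and sex. Krtaps were not split by composition, because no protein sequences were used here.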

Additional observations from a re-analysis of the deposited data

Results flagged for a closer look

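Among 75 named genes, 1 control lay apart from the other 3 for 4 genes, a gap that chance gives in about 1 group in 20, so the 4 are about as many as chance gives. C1qb stood at 6.57 in control 5, against 4.55 to 4.85 in the others. Krt81 was lowest in control 7, at 13.83, still above both mutants. Alpl, a dermal papilla marker, stood at 6.165 in control 6. Krt10 stood at 15.59 in control 6, where the other 3 controls share nearly the same value.

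For 23 named genes the P3 difference departed from the mean of the P6, P13 and P20 differences by the test in the same fit. Some of them were named for that difference. Lower at P3 than later were Sprr2d (-5.82), LOC100042514 (-4.32), Psors1c2 (-3.76), Atp12a (-3.72), Nrg1 (-3.38), Krt1 (-3.01), Krtap19-4 (-2.95), Krt16 (-2.83), Krt84 (-2.49), Slc4a1 (-2.27), Mc5r (-1.65) and Nkd1 (-1.65). Higher at P3 than later were Scarf2 (4.94), Col4a1 (4.79), Krt15 (4.49), the haemoglobin gene Hba-a1 (4.07), Shh (3.49), the matrix protein gene Sparc (3.46), Fcrls (3.29), Fbln2 (2.72), Xlr4a (2.45), Ddit4l (2.39) and Serpine2 (2.07). Sparc is a fibroblast marker, and Hba-a1 marks blood.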

How the results depend on the processing

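No paired analysis was possible because the P3 mutants and controls share no sample number. The count of 274 genes called (40 higher, 234 lower) became 420 (85 higher) with the chip as a fixed block, 439 (88 higher) with it as a random block, 504 (136 higher, 368 lower) without the background-subtracted arrays, 471 (112 higher, 359 lower) with array weights and 71 (7 higher, 64 lower) with the conflicting sample as a mutant. Within the chip that holds both groups 26 were higher, and with only P3 arrays 63. Leaving out 1 sample gave 137 to 268 calls, 12 to 33 higher and 125 to 240 lower, lowest without mutant 2. The 917 genes with a P3 difference unlike the later mean became 1943 with the random block, 2438 with array weights and 600 against male-pattern controls only, a setting chosen after seeing the data, and 314 to 813 with 1 sample left out. Of 53 named genes called, 9 kept the call in all 23 settings (Crym, Krt26, Krt72, Krt84, LOC380979, LOC381286, Nkd1, Scarf2 and Serpinb3c). Hoxc13 passed in 4 settings. Every reversal concerned a gene not called. With no background correction Hba-a1 was 0.00065, and in the authors' values 0.011. With the chip fixed or within the chip Hba-a1 was 0.064, Krt15 0.32 and Lep -0.018, and with a random block 0.031 and 0.16 (Hba-a1, Krt15). With P3 arrays only Hba-a1 was 0.0012. With the mean of probes Trp53 was -0.11. With the conflicting sample as a mutant Hba-a1 was 0.040, Krt10 -0.0069, Krt15 0.054, Lef1 0.11 and Trp53 -0.31. With a sex covariate Cd3g was 0.11, Hba-a1 0.36 and Krt15 0.21, and against male-pattern controls 0.019, 0.195 and 0.87, with Lep -0.032. With 1 sample left out, the ranges were -0.86 to 0.43 for Cd3g, -1.49 to 0.12 for H2-Ab1, -0.61 to 0.59 for Hba-a1, -0.28 to 0.22 for Mbp, -0.031 to 0.042 for Krt10, -0.58 to 1.38 for Krt5, -0.16 to 0.597 for Lep, -0.11 to 0.51 for Trp53, -0.29 to 0.16 for Lef1 and -0.47 to 0.32 for Krt15. The causes were not tested. Low signal limits dim genes, whose differences are bounds.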

Other observations

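The P3 sample with conflicting labels was set beside the 274 genes called at P3. Its value lay within the control range for 143 of them, between the ranges for 120, within the mutant range for 4 and outside both for 7. It was nearer to the control mean for 245. On a scale where 0 is the control mean and 1 the mutant mean, its median position was 0.184.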
